A study of Rattus norvegicus with 6 samples.

Results

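Amino acid transporter genes of the rat renal cortex were examined as a set of 35 genes from the solute carrier families Slc1, Slc3, Slc6, Slc7, Slc16, Slc36, Slc38 and Slc43, taken from a list of names and not by a threshold on measured values. The list does not hold every gene of these families. The accessions on the arrays matched 33 of the 35 genes, among 15645 named genes in all, through 61 of 61537 probes. No probe was matched here for Slc7a1, a carrier of cationic amino acids, or for Slc38a10. Slc6a20 was matched through its current rat symbol, Slc6a20a.

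The samples were kidney cortex RNA of 6 male rats of the Sprague-Dawley stock Crl:CD(SD), bought at 5 weeks of age, each on its own Agilent 1-colour array. The 3 vehicle rats had been given corn oil and the 3 treated rats 500 mg/kg of p-nitroanisole (a nitrobenzene with a methoxy group) daily, for 4 weeks in both groups. No genetic change was labelled in either group, and the labels describe the 3 samples of a group as biological replicates.

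The cortex is built mainly of proximal tubules, whose cells take amino acids back from the filtrate. Apical carriers of the brush border, mostly driven by sodium or protons, bring them into the cell, and basolateral exchangers and uniporters pass them on to the blood. Several carriers work only as pairs of a heavy subunit, Slc3a1 or Slc3a2, with a light subunit of the Slc7 family, and loss of apical carriers causes inherited urinary losses such as cystinuria (Slc3a1, Slc7a9) and Hartnup disorder (Slc6a19).

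The share of probes well above background was 66.4% to 69.2% per array, with no saturated spot. The defining markers of the proximal tubule were present: all 8 markers of its first segments, Slc5a2, Slc34a1 and Lrp2 among them, were well above background on all 6 arrays. The first of 2 slides held the vehicle arrays in row 1 and treated replicates 1 and 2 in row 2, so group and row cannot be told apart there. Treated replicate 3 was hybridised on the second slide, alone. It correlated with the other arrays at r = 0.989 to 0.991 across tested rows, against 0.991 to 0.994 among the others, a description only, since genes are not replicates. In tissue RNA, fewer cells of a type and less RNA per cell cannot be told apart.

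Of the 33 genes with a probe, 27 were tested, each through a probe well above background on all 6 arrays. The other 6 had no probe well above background on all 3 arrays of a group: Slc36a2, an apical carrier of glycine and proline, Slc7a2, a cationic amino acid carrier with 3 probes, and Slc1a4, an exchanger of small neutral amino acids, on 0 of 6 arrays, Slc38a4, a sodium-coupled carrier of the system A type, on 1 vehicle array, and Slc7a5, the light subunit of a carrier of large neutral amino acids, and Slc7a10, a small neutral amino acid exchanger, each on 2 vehicle arrays and 1 treated array. For these genes no difference was computed. Levels below are log2 intensities relative to the 75th percentile of the same array's probes, so that 0 is that percentile, and they do not rank genes against each other, since probes differ in brightness.

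The comparison of treated with vehicle rats asks which of these carriers differ in the cortex after p-nitroanisole. With limma's moderated test over 32197 rows, 0 of the 27 tested members passed a Benjamini-Hochberg adjusted p of 0.05, against 24 rows in all (0.0745%; 0.0497% higher and 0.0248% lower). Of these 32197 rows, 12207 stood for named genes and 19990 were single unnamed probes, so shares of all rows are not shares of genes. Before adjustment, 7 members had a p below 0.05, of which 5 were higher and 2 lower (25.9%), against 13.4% of all rows (7.69% higher and 5.76% lower). The 2 groups did not overlap for 11 members (40.7%), 6 higher and 5 lower, against 22.2% of all rows (11.9% higher and 10.3% lower). The median log2 difference of the 27 was 0.04, against 0.01 over all rows, and 20 of them differed by less than 0.25. One member, Slc38a5, stood far from the others at 1.52, while the remaining 26 lay between -0.39 and 0.47.

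**Figure D1:**
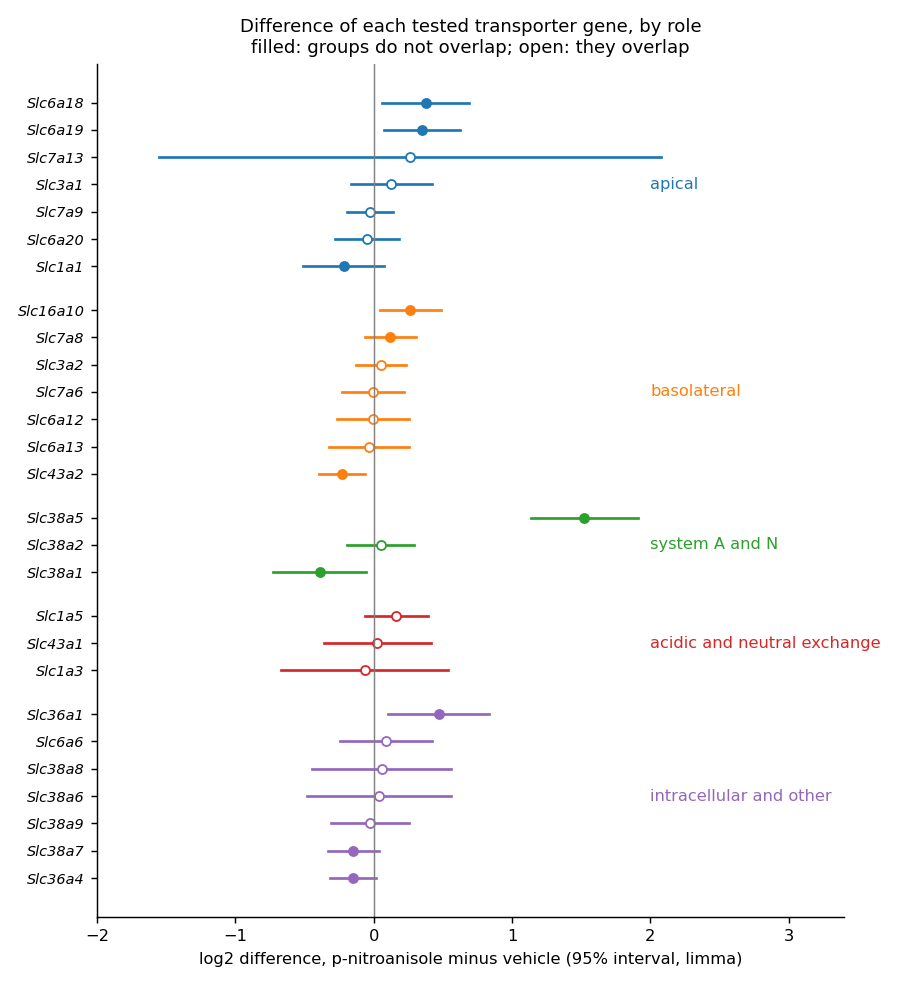
Log2 difference of p-nitroanisole minus vehicle rats for the 27 tested genes, grouped by role, with points for the limma estimate (n = 3 per group) and bars for its 95% interval. Slc38a5 lies at 1.52, and the wide bar of Slc7a13 runs from -1.55 to 2.08.

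Among the apical carriers, Slc6a18 and Slc6a19 were the members with the clearest separation. Slc6a19 encodes the main sodium-dependent carrier of neutral amino acids in the brush border, and Slc6a18 a related carrier of neutral amino acids that prefers later parts of the proximal tubule. For Slc6a18 the level was 4.05, 3.88 and 4.35 on the vehicle arrays and 4.41, 4.48 and 4.53 on the treated arrays. All 3 treated arrays lay above the vehicle arrays, by 1.30-fold on average (log2 difference 0.38, SE 0.13, limma adjusted p = 0.311). Its other probes gave 0.40 (SE 0.12) and 0.35 (SE 0.12), also with no overlap.

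For Slc6a19, measured by 1 probe, the level was 3.57, 3.53 and 3.29 in vehicle rats and 3.92, 3.84 and 3.66 in treated rats. The groups again did not overlap, with the treated arrays higher by 1.27-fold (log2 difference 0.35, SE 0.11, limma adjusted p = 0.287). Of 16 alternatives, 10 distinct ones could move a difference, among them the series matrix, which nearly repeats the main scaling. Over them it ran from 0.27 to 0.50 for Slc6a18 and from 0.26 to 0.42 for Slc6a19, and neither gene passed the adjusted threshold under any of the 16.

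These genes are next to each other among protein-coding genes in the RefSeq annotation of GRCr8. The 250 bases before the annotated start of each are shown because the pair shared both a direction and a sequence element, with Slc38a5 added as the member with the largest difference, a choice made after values and matches were seen. The sequences are from RefSeq (GRCr8), 5′ to 3′ on the gene's strand, at chr1:31436403-31436652 (plus strand), chr1:31414494-31414743 (plus strand) and chrX:16894471-16894720 (minus strand). Capitals mark matches to the HNF1 half-site GTTAAT or the GATA core GATAA on either strand, which did not overlap in these stretches.
Slc6a18: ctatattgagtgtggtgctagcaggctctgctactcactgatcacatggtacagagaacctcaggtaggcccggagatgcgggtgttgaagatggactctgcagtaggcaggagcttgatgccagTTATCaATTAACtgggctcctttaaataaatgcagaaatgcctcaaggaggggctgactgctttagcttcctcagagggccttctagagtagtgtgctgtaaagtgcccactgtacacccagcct
Slc6a19: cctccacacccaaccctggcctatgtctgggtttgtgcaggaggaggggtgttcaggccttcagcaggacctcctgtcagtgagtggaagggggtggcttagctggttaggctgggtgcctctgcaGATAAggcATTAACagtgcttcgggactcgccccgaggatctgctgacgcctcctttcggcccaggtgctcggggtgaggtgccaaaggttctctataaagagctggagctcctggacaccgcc
Slc38a5: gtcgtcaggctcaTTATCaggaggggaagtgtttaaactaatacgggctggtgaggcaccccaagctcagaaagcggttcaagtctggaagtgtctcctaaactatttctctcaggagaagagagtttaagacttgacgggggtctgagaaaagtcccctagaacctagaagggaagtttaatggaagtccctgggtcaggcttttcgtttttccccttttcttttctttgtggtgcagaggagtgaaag
HNF1 factors are activators of many proximal tubule genes. The half-site was present on the reverse strand in both Slc6a promoters, starting at -119 for Slc6a18 and -116 for Slc6a19 from the gene's start. Of 32 promoter entries for 29 member genes, these were the 2 with the half-site (6.25%), near the 6.45% of 33469 promoters of the same length. GATA factors bind the GATA core and include regulators of red cell genes. The core was in 5 of the 32 entries (15.6%), against 23.5% of all promoters. The letters TGATGNAA, the core of the amino acid response element bound by ATF4, were in 3 entries (9.4%: Slc1a4, Slc38a1 and Slc7a1), against 3.403% of all. The antioxidant response element TGACNNNGC, bound by NRF2, was in 7 entries (21.9%), against 10.1% of all. These were entries of Slc3a1, Slc3a2, Slc6a6, Slc7a1, Slc36a1, Slc38a2 and Slc38a8. Whether these shares differ from those of all promoters was not tested.

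The subunits of the cystine and dibasic amino acid carrier differed little. Slc3a1, its heavy subunit, had levels of 7.42, 7.47 and 7.81 in vehicle rats and 7.65, 7.68 and 7.75 in treated rats. The treated arrays lay inside the vehicle range (log2 difference 0.13, SE 0.12, 95% interval -0.16 to 0.42), and the second probe gave 0.12 (SE 0.11). Slc7a9, its light subunit, had levels of 5.79, 5.63 and 5.69 against 5.67, 5.68 and 5.69. The groups overlapped (log2 difference -0.025, SE 0.07, 95% interval -0.19 to 0.14).

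Slc7a13 encodes a carrier of acidic amino acids and cystine that pairs with Slc3a1 in the last segment of the proximal tubule. It was the member that varied most between animals of the vehicle group, with levels of 1.83, 3.22 and 4.83 on its brighter probe. Vehicle replicate 1 was lowest and vehicle replicate 3 highest, a 7.97-fold range. The treated levels, 3.46, 3.998 and 3.21, lay inside that range. The second probe showed the same spread, at -1.13, 0.36 and 1.97 in vehicle rats and 0.69, 1.09 and 0.45 in treated rats. A vehicle range as wide as that of Slc7a13 (3.00 on the log2 scale) was seen in 69 of 32197 rows (0.214%), against a median range of 0.20. The log2 difference between groups was 0.26 (SE 0.74, limma adjusted p = 0.894). It went from -0.47 without vehicle replicate 1 to 1.03 without vehicle replicate 3.

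A similar vehicle spread was present in Mep1b, a subunit of the brush border protease meprin, with levels of 1.35, 1.53 and 3.58, and in Slc22a7, an organic anion carrier listed for the last segment, with levels of -4.62, -3.37 and -2.19. In both, as on both probes of Slc7a13 and the brighter probe of Slc3a1, vehicle replicate 1 was the lowest and vehicle replicate 3 the highest of the vehicle rats. On the second Slc3a1 probe vehicle replicate 3 was also the highest, and vehicle replicate 2 the lowest by a narrow margin. These genes were singled out after their values were seen. The other 4 markers of the last segment varied little among vehicle rats: Slc27a2, a fatty acid activating enzyme, had vehicle levels of 7.005, 7.12 and 7.004, and Atp11a, a phospholipid flippase, 4.92, 4.80 and 4.91. The part of segment sampling in the spread of Slc7a13 was not tested.

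**Figure D2:**
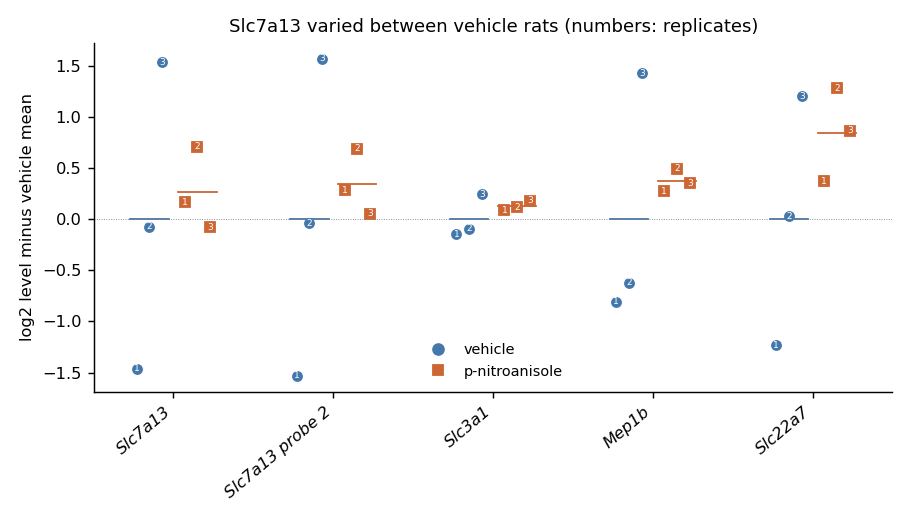
Log2 level of both Slc7a13 probes, its partner Slc3a1, and Mep1b and Slc22a7 on each array, minus the mean of the vehicle arrays, with circles for vehicle and squares for p-nitroanisole rats, the replicate number inside and a line at each group mean. Vehicle replicates 1 and 3 are 3.00 apart for Slc7a13, with all treated arrays between them.

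Slc1a1 takes up glutamate and aspartate at the brush border, and Slc6a20 proline and other imino acids. Slc1a1 had levels of 3.09, 2.95 and 3.03 in vehicle rats and 2.91, 2.94 and 2.56 in treated rats. The groups did not overlap, by a margin smaller than the spread within either group, and treated replicate 3 was the lowest (log2 difference -0.22, SE 0.12, limma adjusted p = 0.480; -0.097 without that array). Slc6a20 differed by -0.049 (SE 0.09) with overlapping groups, and its second probe ran the other way at 0.14 (SE 0.08).

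Over the apical list 4 of 7 tested members were higher and 3 lower, with a median of 0.13. This median was 0.016 without vehicle replicate 1, 0.044 without treated replicate 2, 0.080 without vehicle replicate 2 and 0.25 without vehicle replicate 3. It was 0.023 with quantile scaling, 0.073 with median scaling and 0.078 with normexp. Of the 7, 3 did not overlap (42.9%), against 22.2% of all rows.

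Among the basolateral carriers, Slc43a2 and Slc16a10 had the largest differences, in opposite directions. Both are uniporters that let amino acids leave the cell, Slc43a2 for branched-chain amino acids and phenylalanine and Slc16a10 for aromatic amino acids. Slc43a2 had levels of 3.66, 3.70 and 3.58 in vehicle rats and 3.38, 3.395 and 3.48 in treated rats. Every treated array lay below the vehicle arrays, by 1.17-fold on average (log2 difference -0.23, SE 0.07, limma adjusted p = 0.265). Its other 2 probes were also lower in treated rats, by -0.33 (SE 0.12, no overlap) and -0.26 (SE 0.12, with overlap).

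Slc16a10 had levels of 0.24, 0.07 and 0.02 in vehicle rats and 0.47, 0.31 and 0.33 in treated rats. The treated arrays lay above the vehicle arrays by 1.20-fold (log2 difference 0.26, SE 0.09, limma adjusted p = 0.310). Over the alternatives the difference lay between 0.21 and 0.33 for Slc16a10 and between -0.30 and -0.20 for Slc43a2, with 0 calls for either.

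The exchanger pair of the basolateral membrane is made of Slc7a8, which swaps neutral amino acids, and the heavy subunit Slc3a2. Slc7a8 had levels of 5.07, 5.06 and 4.98 in vehicle rats and 5.08, 5.13 and 5.25 in treated rats. The groups were just apart on this probe (log2 difference 0.12, SE 0.07, limma adjusted p = 0.525; 0.07 with median scaling), and they overlapped on the second probe (0.18, SE 0.11). Slc3a2 had levels of 4.70, 4.67 and 4.61 against 4.76, 4.77 and 4.61, and the groups overlapped (log2 difference 0.051, SE 0.07, 95% interval -0.13 to 0.23).

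The light subunit gene Slc7a6, the betaine carrier gene Slc6a12 and Slc6a13, a carrier of taurine and GABA, differed by -0.0038, -0.0065 and -0.033, all with overlapping groups. Of the 7 tested basolateral members 3 were higher and 4 lower, with a median of -0.0038, which lay between -0.059 with median scaling and 0.08 with the normexp background correction. Of the 7, 3 did not overlap, again against 22.2% of all rows. The difference between the apical and basolateral lists was not tested.

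Sodium-coupled carriers of the Slc38 family held the largest difference of the set. Slc38a5 encodes a system N carrier, which moves glutamine, asparagine, histidine and serine in exchange for protons. Its level was -2.77, -3.24 and -3.26 on the vehicle arrays and -1.71, -1.42 and -1.58 on the treated arrays. The treated arrays lay above all vehicle arrays by 2.87-fold on average (log2 difference 1.52, SE 0.16, n = 3 per group, 95% interval 1.13 to 1.91), with a limma adjusted p of 0.0621, so that it did not pass the threshold. Its p was the 40th smallest of 32197 rows.

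The second Slc38a5 probe was dimmer and was well above background on all 3 treated arrays and on 0 vehicle arrays. Its levels were -5.90, -7.58 and -6.18 in vehicle rats and -5.07, -4.85 and -5.14 in treated rats. For a cautious estimate, each vehicle array was given the lowest signal among probes well above background, or the probe's own signal where that was higher. The treated group was then 1.89-fold higher. This is not a strict bound, since a probe not well above background can have a signal above that lowest one. This probe was tested only through the treated group, in which it was bright, and is given as a description.

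Slc38a5 passed the threshold under 2 of the 16 alternatives, limma with a trended robust variance (adjusted p = 0.0186, with 0.981% of all rows called) and the normexp background correction (difference 1.13, adjusted p = 0.0136, with 0.264% of all rows called). Over the 16, its adjusted p ran from 0.0136 to 0.295 and its difference from 1.13 to 1.68. On slide 1 alone, without treated replicate 3, the difference was 1.53 (SE 0.19, limma adjusted p = 0.116). Group and slide row coincide on that slide.

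Markers of red cell precursors were set beside Slc38a5. Of the 6 listed genes 5 were tested and 1, Alas2, passed the threshold. All 5 had higher levels in treated rats with no overlap, against 11.9% of all rows, with log2 differences from 1.39 to 2.09. This list was chosen with earlier results of these data known, so the count is a description only. Alas2, the first enzyme of heme synthesis in red cell precursors, had levels of 0.18, 0.42 and 0.58 in vehicle rats and 2.29, 2.14 and 2.48 in treated rats (log2 difference 1.91, SE 0.14, limma adjusted p = 0.0403). The other 4, Rhd, Epb42, Ahsp and Hemgn, had limma adjusted p-values from 0.0916 to 0.202. Hemgn was not well above background on vehicle replicate 1. It was thus tested only through the treated group, in which it was high, and its place among the 5 is a description. The summed linear level of the 5 markers, in multiples of the 75th percentile, was 1.97 to 2.70 on the vehicle arrays and 7.08 to 11.6 on the treated arrays. All 5 markers were highest on treated replicate 3, while Slc38a5 was highest on treated replicate 2. The part of red cell precursors in the difference of Slc38a5 was not tested.

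**Figure D3:**
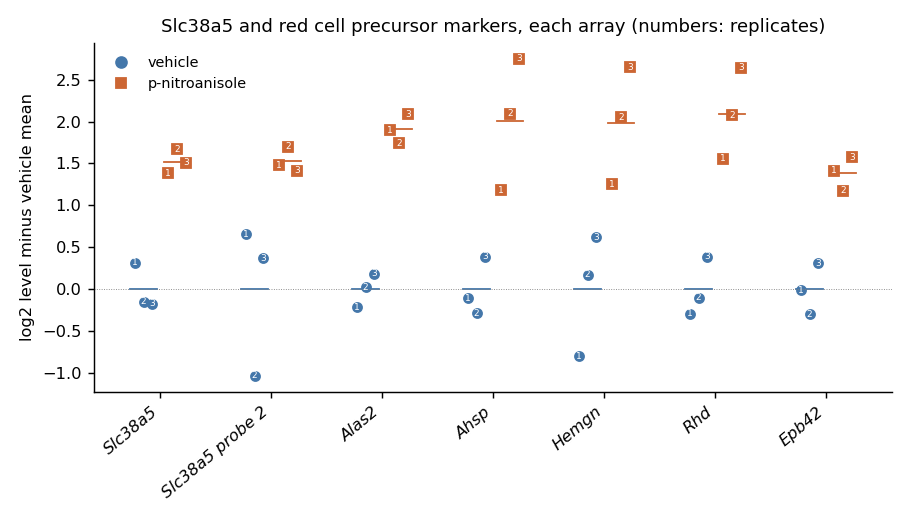
Log2 level of both Slc38a5 probes and the 5 tested red cell precursor markers on each array, minus the mean of the vehicle arrays, with circles for vehicle and squares for p-nitroanisole rats, the replicate number inside and a line at each group mean. For each gene all 3 treated arrays lie above all 3 vehicle arrays, and neither the vehicle levels of the second Slc38a5 probe nor the level of Hemgn on vehicle replicate 1 are well above background.

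The system A carriers take up small neutral amino acids with sodium. Slc38a1, measured by a dim probe, had levels of -4.44, -4.40 and -4.14 in vehicle rats and -4.87, -4.49 and -4.80 in treated rats. The treated arrays were lower with no overlap (log2 difference -0.39, SE 0.14, limma adjusted p = 0.315), but the difference was -0.062 (SE 0.10) with the normexp background correction. Slc38a2 had levels of 1.45, 1.44 and 1.18 against 1.501, 1.37 and 1.35, with overlapping groups (log2 difference 0.05, SE 0.10; second probe 0.07, SE 0.11; -0.0037 with median scaling). Slc38a1, Slc38a2 and Slc38a4 follow each other in the RefSeq annotation.

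Of the carriers of acidic and neutral amino acids, Slc1a5, an exchanger of glutamine and other neutral amino acids, had the largest difference. Its levels were 1.25, 1.34 and 1.47 in vehicle rats and 1.49, 1.43 and 1.64 in treated rats, which overlapped (log2 difference 0.16, SE 0.09, limma adjusted p = 0.488). Slc1a3, a glutamate carrier best known from glia, had levels of -2.43, -1.64 and -2.57 against -2.29, -2.31 and -2.24. Vehicle replicate 2 was the high array, and the log2 difference of -0.07 (SE 0.24, limma adjusted p = 0.922) became 0.22 without it. Slc43a1, a carrier of large neutral amino acids, differed by 0.026 (SE 0.16). The groups overlapped for all 3 genes.

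Intracellular carriers and others, the taurine carrier among them, formed the last group, with 7 of 8 members tested. Slc36a1, a proton-coupled carrier of small amino acids found on lysosomes and brush borders, had levels of -3.28, -3.76 and -3.24 in vehicle rats and -2.93, -2.98 and -2.96 in treated rats on the probe that stands for it. The groups were apart there (log2 difference 0.47, SE 0.15, limma adjusted p = 0.284; 0.30 without vehicle replicate 2). On the second probe, also well above background on all 6 arrays, they overlapped and the difference was 0.017 (SE 0.09). The first probe was the brighter over all 6 arrays, but in vehicle rats the second was, with a mean of -3.34 against -3.43, and with normexp the second stood for the gene, at a difference of 0.058. Slc36a1 thus counts among the 11 members without overlap through a probe whose choice rests on the treated arrays.

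Slc38a7, a glutamine carrier of lysosomes, had levels of 0.89, 0.85 and 0.91 in vehicle rats and 0.77, 0.81 and 0.62 in treated rats. The treated arrays were lower with no overlap on both probes (log2 differences -0.15, SE 0.08, and -0.17, SE 0.08; limma adjusted p = 0.450 for the first). Without treated replicate 3, the lowest array, the difference was -0.092. Slc36a4, a carrier of proline and tryptophan, was also lower with no overlap on its brightest probe, at -1.88, -1.89 and -1.76 against -2.04, -1.95 and -1.999 (log2 difference -0.15, SE 0.07, limma adjusted p = 0.414; -0.093 with normexp). Its other 2 probes gave 0.013 and 0.0025 with overlapping groups.

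Slc6a6, the taurine carrier, Slc38a9, the arginine-responsive lysosomal protein of the mTORC1 pathway, and Slc38a6 and Slc38a8 had overlapping groups, with log2 differences of 0.09, -0.028, 0.04 and 0.06.

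**Figure D4:**
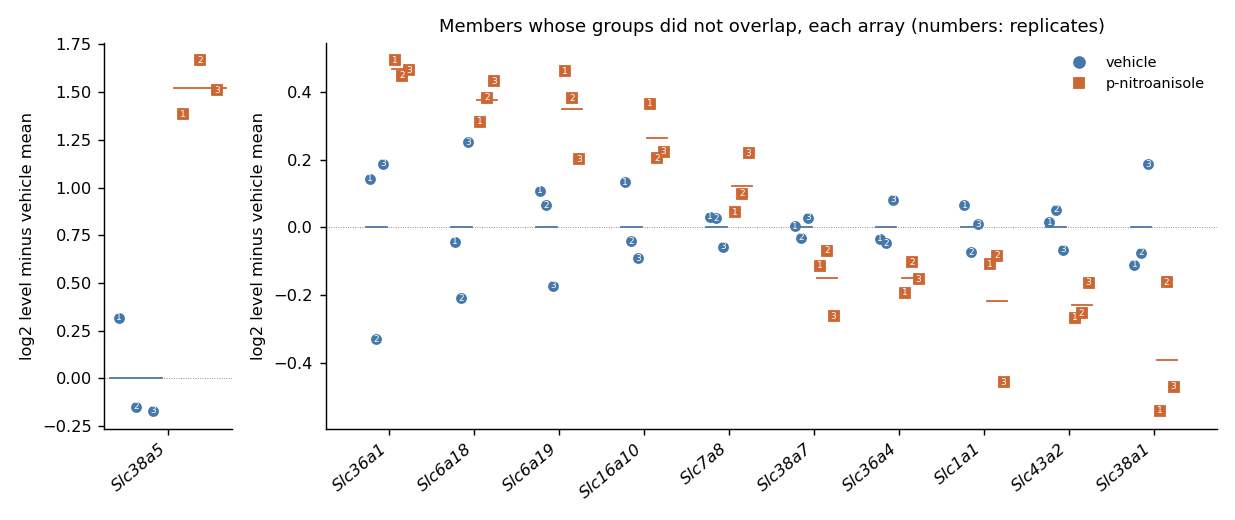
Log2 level on each array minus the mean of the vehicle arrays for the 11 genes whose groups did not overlap, with circles for vehicle and squares for p-nitroanisole rats, the replicate number inside and a line at each group mean. The left panel, with its own scale, shows Slc38a5 at 1.52, and the right panel shows the other 10, from 0.47 for Slc36a1 to -0.39 for Slc38a1.

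Across the set, 16 tested genes had several tested probes. The probes gave 1 direction for 13 of them, and both directions for Slc36a4, Slc38a6 and Slc6a20. Slc38a5 is counted among the 13 although its second probe was not well above background on any vehicle array. In Slc6a18 and Slc43a2 all 3 probes ran the same way.

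**Figure D5:**
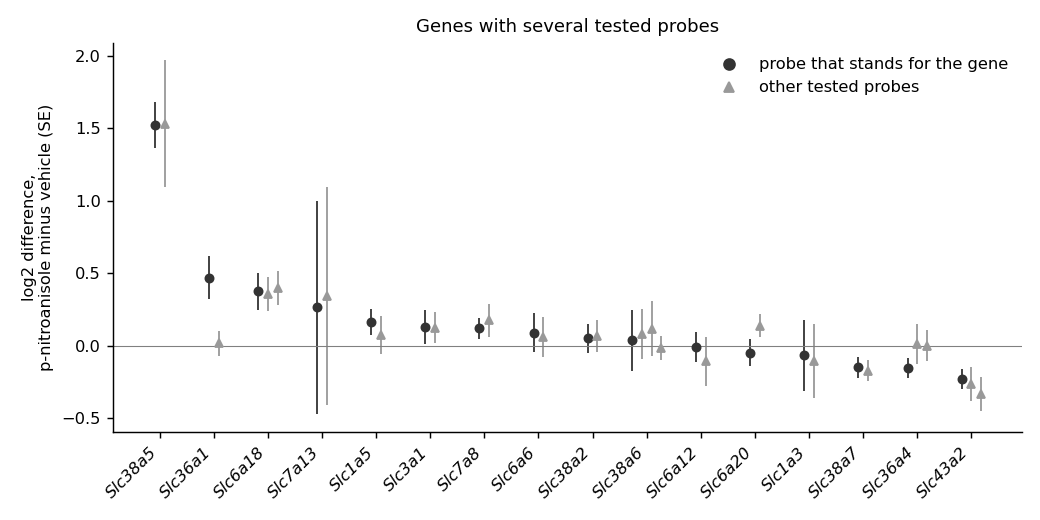
Log2 difference of p-nitroanisole minus vehicle rats for every tested probe of the 16 genes with several tested probes, with circles for the probe that stands for the gene, triangles for the others and bars for the SE (n = 3 per group). The probes of Slc36a1 lie at 0.47 and 0.017. The second Slc38a5 probe is drawn at its measured 1.53, although its vehicle levels are not well above background.

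Partner proteins of the apical carriers, from a list of 7 genes, gave 6 higher and 1 lower, with 0 called and a median of 0.13. Over all rows, 52.4% were higher. An unadjusted p under 0.05 was seen for 1 partner (14.3%), near the 13.4% of all rows. Cltrn, the collectrin that brings Slc6a19 to the brush border, had levels of 7.50, 7.69 and 7.39 in vehicle rats and 7.72, 7.64 and 7.63 in treated rats, which overlapped (log2 difference 0.13, SE 0.09). Mep1b had the largest difference of this list at 0.37 (SE 0.59), with overlapping groups.

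Of 30 other amino acid and peptide carriers 16 were tested, 12 higher and 4 lower, with 0 called and a median of 0.10. For 2 of them, both higher, the unadjusted p was under 0.05 (12.5%), near the 13.4% of all rows. The largest differences were those of Slc6a11, a GABA carrier, at 0.78 (SE 0.37) and Slc7a4 at -0.43 (SE 0.18). Of 20 genes listed for the response to amino acid shortage, all tested, 11 were higher and 9 lower, with a median of 0.02. The list holds Atf4 itself and the kinase gene Eif2ak4. Of the 20 genes, 0 were called and 0 had an unadjusted p under 0.05, against 13.4% of all rows. Ddit4, an inhibitor of mTORC1, had the largest difference at -0.86 (SE 0.41) and varied among vehicle rats from 1.44 to 3.15, and Psph, an enzyme of serine synthesis, followed at -0.23 (SE 0.16).

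Marker lists of other cortical cells were set beside these values. Proximal markers of the first segments summed to 990 to 1015 in vehicle rats and 1055 to 1083 in treated rats, with 6 of 8 higher and a median log2 difference of 0.07. Those of the last segment summed to 159 to 168 in vehicle rats and 157 to 161 in treated rats, with a median of 0.11 (3 of 5 higher). Such sums are weighted towards the brightest probes. The groups did not overlap for 2 of the 8 first-segment markers (25%) and 1 of the 5 last-segment markers (20%), against 22.2% of all rows. Leukocyte markers had 3 of 4 tested genes lower and a median of -0.39. The lowest of them, Cd3e at -0.67, was well above background on 5 of 6 arrays. It passed the filter through 1 group only, so its place in this count is a description. All 4 principal cell markers of the collecting duct were lower, with a median of -0.27. Medians of the thick limb (0.13), intercalated cell (-0.042), podocyte (-0.06), endothelium (-0.049) and fibroblast (0.15) lists and the 1 tested distal convoluted tubule marker, Slc12a3 (-0.034), lay nearer to 0, and 0 genes of these lists were called. Their part in the differences of the carriers was not tested.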

How the data were processed

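Total RNA was labelled with Cy3 and hybridised to 1-colour Agilent arrays, per the labels' protocols, and per the file headers version 10.7.1.1 of Feature Extraction read the spots. The deposited scanner files give processed intensity per spot, with background subtracted and spatial trends removed by that software per the file headers, with no scaling across arrays. A linear signal fills the authors' deposited series matrix, and it equals these intensities divided by 1 constant per array, within 0.0241% of the 75th percentile over all probe means. Its column medians were 0.105, 0.105 and 0.105 (vehicle) and 0.109, 0.108 and 0.111 (treated).

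Levels are log2 intensity (floored at 1) minus the 75th percentile of the 61537 non-control probes of that array, without spots flagged as outliers (0 to 4 per array). Probes were named by accession from a RefSeq table of GRCr8 (28206 probes, 45.8%). The array was designed on another build, so coordinates are given only for RefSeq promoter sequences. A probe was tested if well above background on all 3 arrays of a group, and the brightest tested probe stood for a named gene. Each unnamed probe was its own row. This gave 32197 rows, 12207 for named genes and 19990 for unnamed probes. The test was limma's (3.58.1, under R 4.3.3; lmFit and eBayes, two-sided, Benjamini-Hochberg over all rows, threshold 0.05). The procedure was tested on simulated data without slide or row effects, so that test does not address the slide layout. Precision is limited by having 3 arrays in each group.

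The members and lists were chosen with earlier results of these data known. Values are given for every member whose groups did not overlap, for the 2 largest differences of each list, and for subunit partners; 1 gene that this rule names is not reported here. Mep1b, Slc22a7 and genes compared with them were singled out after their values were seen. Replicate numbers were shared between groups, but deviations of same-numbered arrays from their group means correlated at -0.0088, 0.040 and -0.010, so they were not taken as pairs. Alternatives covered scaling, the series matrix, background correction, probe filters, probe summary, variance model, slide and replicate blocks, the threshold and leaving out each array. The normexp correction was run on median spot signals, a choice made after the files were seen, because the files used here hold no mean signal column.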

Additional observations from a re-analysis of the deposited data

How the results depend on the processing

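The count of 24 rows called over the whole array depended on the setting. It was 85 with normexp, 316 with a trended robust variance, 2 with no filter on dim probes, 9 with the slide as a block, 1 with the replicate block and 0 at a threshold of 0.01 (4329 rows at an unadjusted p under 0.05), and it ran from 0 to 9 with 1 array left out, being 0 without vehicle replicate 2 (3262 rows at an unadjusted p under 0.05) or treated replicate 1 (3718 rows). The count of members called was 0 except for Slc38a5, the 1 member called with normexp and with a trended robust variance. With the replicate block 0 members were called, and the replicate numbers share no source named in the labels.

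The apical median of 0.13 was 0.023 with quantile scaling and ran from 0.016 to 0.25 with 1 array left out, and the basolateral median of -0.0038 was 0.080 with normexp. Of the 27 tested members 14 kept their sign under all 16 alternatives, among them all 11 whose groups did not overlap, whose direction cannot change when an array is left out. The other 13, none of them called, changed sign in at least 1. Of the 16, 5 leave every member's difference as it is (within 1e-05), and the slide block gives the same differences as leaving out treated replicate 3, so 10 distinct settings could move a sign. The series matrix, counted among the 10, nearly repeats the main scaling (0.3758 against 0.3756 for Slc6a18). With median scaling the signs turned for Slc38a2 (-0.0037), Slc38a6 (-0.017), Slc3a2 (-0.0044) and Slc43a1 (-0.030). With quantile scaling they turned for Slc38a8 (-0.030) and Slc43a1 (-0.034), and with normexp for Slc6a12 (0.0042) and Slc7a6 (0.080). With the slide as a block they turned for Slc38a6 (-0.10), Slc38a9 (0.070), Slc6a12 (0.032), Slc6a13 (0.060), Slc6a20 (0.012) and Slc7a6 (0.022). With 1 array left out, the differences ran from -0.24 to 0.22 for Slc1a3, -0.035 to 0.10 for Slc38a2, -0.10 to 0.26 for Slc38a6, -0.17 to 0.18 for Slc38a8, -0.12 to 0.070 for Slc38a9, -0.12 to 0.12 for Slc43a1, -0.10 to 0.072 for Slc6a12, -0.12 to 0.060 for Slc6a13, -0.12 to 0.012 for Slc6a20, -0.47 to 1.03 for Slc7a13, -0.078 to 0.044 for Slc7a6 and -0.062 to 0.016 for Slc7a9. The cause of these shifts was not tested. Normexp on mean spot signals was not run.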
